A study of Homo sapiens with 6 samples.

Results

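RNA levels of 9 genes for core subunits of the Polycomb repressive complexes were followed in HCT116, an established line of human colorectal cancer cells. The genes were chosen by name for their place in the complexes, with earlier results of these data known. They were EZH1, EZH2, SUZ12 and EED of Polycomb repressive complex PRC2, and RNF2, BMI1, CBX2, CBX7 and CBX8 of PRC1. They are 9 of the 56638 gene symbols counted in each library. All 9 passed the filter on low counts, which left 16369 genes to test.

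The libraries were 3 of control HCT116 cells and 3 of HCT116 cells labelled ZFP90 knockout, made with guide RNAs against exon 3 of ZFP90, a KRAB zinc-finger gene. Both groups were at passage 16 to 19 and differed in no other labelled treatment, and libraries were built from 1 µg of total RNA with a TruSeq kit. Separate cultures, clones or pools are not named for the replicates, so the spread behind every p-value is that between libraries and may be technical. In bulk RNA, fewer cells of a kind and less RNA per cell cannot be told apart.

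PRC2 methylates a lysine in the tail of histone H3, a mark of silenced developmental genes. EZH1 or EZH2 is its methyltransferase, SUZ12 is the scaffold that holds the enzyme, and EED binds the methylated tail and stimulates the enzyme. PRC1 ubiquitinates histone H2A through RNF2 or RING1 paired with a PCGF protein such as BMI1, and in canonical PRC1 a chromodomain protein of the CBX family reads the mark made by PRC2.

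Reads in genes numbered 13424356 to 17012910 per library, so that 3 reads correspond to between 0.176 and 0.223 CPM (reads scaled to the library total). ZFP90 RNA was higher in the knockout-labelled libraries, with 47.5, 47.4 and 43.1 CPM in the controls and 86.9, 80.5 and 89.8 CPM in the knockout-labelled libraries (log2 fold change 0.90, SE 0.066, edgeR adjusted p = 5.1e-05). Gene-level counts cannot show whether the reading frame was disrupted, so every direction below is given for the libraries as labelled. Control replicate 2 stood apart along the genome: relative to the other 2 controls its median gene had 102% to 104% of their level on chromosomes 1 to 5 and 10 to 22, but less on several others, among them chromosome 7 (80.5%), chromosome 9 (70.3%) and chromosome X (53.5%). EZH2 was the only member on a chromosome with such a deficit. Values without that library, or with its counts corrected by the local median of its neighbours, stand beside many, not all, of the results they change. Of 10 colon epithelial markers 8 were tested; KRT20, a marker of differentiated epithelium, rose (log2 fold change 2.47, edgeR adjusted p = 0.000303), KRT18 fell (-0.23, edgeR adjusted p = 0.0394; lost without control replicate 3 or knockout-labelled replicate 2 or 3), and the other 6 were not called. EPCAM (337 to 361 CPM) and KRT8 (1291 to 1442 CPM) had high levels in every library, whereas CDX1 was at 0 reads in all 6 and VIL1 had at most 2. Of 8 leukocyte markers none passed the count filter and their summed level was 1.51 to 1.84 CPM, with CD3E at 0. Of 10 fibroblast and endothelial markers, 6 were tested and edgeR and DESeq2 called 0 (1 was higher at an unadjusted p under 0.05); COL1A1 at 66.6 to 84.7 CPM made up most of their summed 76.9 to 99.9 CPM, and PECAM1 was at 0.

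The promoters of the members differ in sequence features, and 4 are shown to put the genes whose levels are described below beside their sequence: EZH2 and BMI1, which changed, and the PRC2 partners SUZ12 and EED. They are RefSeq promoters on GRCh38.p14, from 250 bases before the start of transcription to 30 after it, read 5′ to 3′ on the gene's strand. EZH2 is at chr7:148884262-148884541 on the minus strand, SUZ12 at chr17:31936757-31937036 on the plus strand, EED at chr11:86244503-86244782 on the plus strand and BMI1 at chr10:22320849-22321128 on the plus strand. Capitals mark matches, on either strand, to the E2F letters TTTCCCGC, TTTGGCGC, TTTCGCGC and TTTGCCGC, to CCAAT, and to the E-box CACGTG.
EZH2: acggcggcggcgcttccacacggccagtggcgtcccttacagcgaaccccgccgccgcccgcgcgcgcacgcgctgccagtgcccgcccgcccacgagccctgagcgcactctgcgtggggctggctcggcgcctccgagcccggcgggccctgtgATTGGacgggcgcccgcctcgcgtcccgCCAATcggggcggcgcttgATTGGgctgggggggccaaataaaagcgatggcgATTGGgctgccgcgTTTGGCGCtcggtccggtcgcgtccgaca
SUZ12: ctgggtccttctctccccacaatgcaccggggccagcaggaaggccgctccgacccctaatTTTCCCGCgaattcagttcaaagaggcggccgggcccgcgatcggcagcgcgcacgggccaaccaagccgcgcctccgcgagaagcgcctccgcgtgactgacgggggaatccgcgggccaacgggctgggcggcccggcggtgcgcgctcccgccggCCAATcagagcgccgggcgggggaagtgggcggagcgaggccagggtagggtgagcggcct
EED: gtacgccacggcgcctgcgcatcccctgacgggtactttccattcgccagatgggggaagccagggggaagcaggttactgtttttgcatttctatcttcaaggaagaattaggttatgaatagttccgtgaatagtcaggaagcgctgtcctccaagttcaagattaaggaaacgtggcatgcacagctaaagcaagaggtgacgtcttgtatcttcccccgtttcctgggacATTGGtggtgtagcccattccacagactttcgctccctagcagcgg
BMI1: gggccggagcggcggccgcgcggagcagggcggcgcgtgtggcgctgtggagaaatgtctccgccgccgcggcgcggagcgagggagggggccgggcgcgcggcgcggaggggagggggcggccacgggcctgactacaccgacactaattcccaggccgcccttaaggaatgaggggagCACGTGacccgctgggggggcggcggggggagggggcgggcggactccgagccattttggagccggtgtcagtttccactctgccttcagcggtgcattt

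RefSeq promoters were matched for 7 of the 9 members; CBX2 and CBX8 had no entry, and EZH2 and BMI1 had 2 each, of which the first is shown. In the 300 bases from 250 before to 50 after the start, the first EZH2 promoter held an E2F match that begins 1 base after the start and 4 CCAAT boxes, and the second held neither. Of all 35116 RefSeq promoters of that length, 3.31% held an E2F match, 34.6% held CCAAT and 0.991% held it 4 or more times. SUZ12 held an E2F match 189 bases before the start and 1 CCAAT box, EZH1 an E2F match 115 bases before the start, EED 1 CCAAT box and CBX7 another. The BMI1 promoters held no E2F letters and no CCAAT in this window; the first had an E-box 70 bases before the start, found in 7.26% of all promoters, and the second had none. The promoters shown for EZH2, SUZ12 and BMI1 were rich in G and C (74.7%, 73.0% and 73.3%) with 46, 40 and 36 CpG dinucleotides, against 52.3% and 16 in EED and a median of 58.7% and 14 over all promoters; the second promoters of EZH2 and BMI1 had 77% and 45, and 91% and 65. No motif match overlapped another. A match describes letters only and is not a binding site.

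Of the 9 subunits, EZH2 and CBX2 rose and BMI1 fell in the libraries labelled ZFP90 knockout (edgeR quasi-likelihood test, adjusted p under 0.05 over all 16369 genes). Over all tested genes 21.1% were called, 9.73% higher and 11.4% lower, and at these shares 3 calls among 9 genes is a count too small to set the subunits apart. The other 6 were not called: SUZ12, EED, RNF2, CBX7 and EZH1 had negative log2 fold changes and CBX8 one near 0. The median log2 fold change of the 9 was -0.07, against 0.0084 over all tested genes. In 7 of the 9 the 3 control values and the 3 values of the knockout-labelled libraries did not overlap, against 41.2% of all tested genes (20.9% higher and 20.3% lower). Of these 7, EZH2 and RNF2 overlapped once control replicate 2 was corrected along the genome. At an adjusted p under 0.01, passed by 9.08% of genes, only BMI1 was called.

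**Figure D1:**
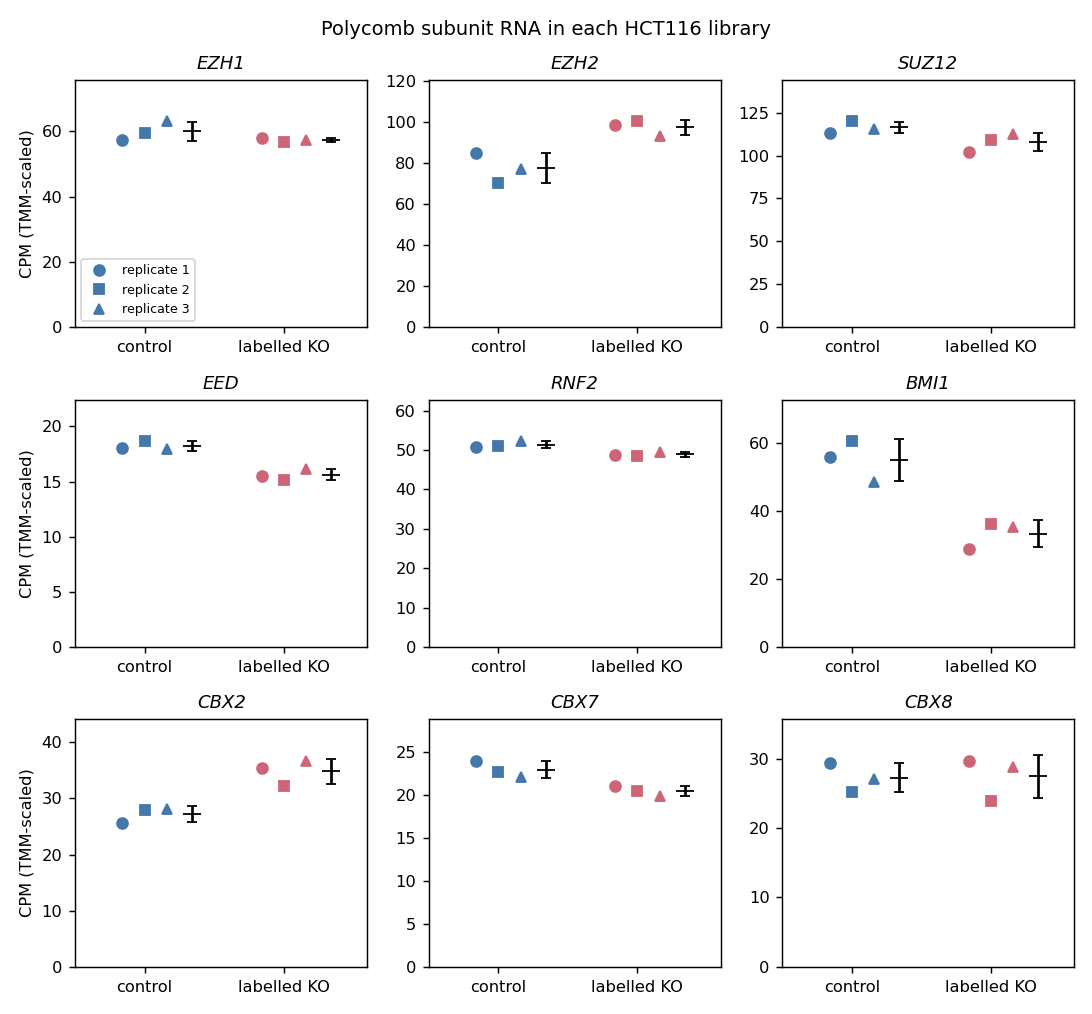
CPM with TMM-scaled library sizes of the 9 subunits in each library, controls in blue and libraries labelled ZFP90 knockout (labelled KO) in red; circles, squares and triangles are replicates 1 to 3 and the black bars give mean ± SD (n = 3). BMI1 sits at 48.7 to 60.7 CPM in controls and 28.9 to 36.1 CPM in the knockout-labelled libraries, while EZH1 and CBX8 overlap between groups.

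Among the PRC2 genes only the methyltransferase EZH2 passed the test, and it was higher. EZH2 (chr7:148807383-148884321, minus strand, GRCh38 by GENCODE release 29, as for all genes placed below) measured 84.7, 70.2 and 77.2 CPM in control replicates 1 to 3 and 98.2, 100.4 and 93.3 CPM in the knockout-labelled libraries. The lowest value was that of control replicate 2, and the groups did not overlap. The processed copy EZH2P1 had at most 2 reads in any library. The mean rose from 77.4 ± 7.23 to 97.3 ± 3.64 CPM (SD, n = 3), a 1.26-fold difference (log2 fold change 0.33, SE 0.072, edgeR adjusted p = 0.0136).

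The size of the EZH2 difference depended on control replicate 2, whose genes around EZH2 stood at 74.1% of the other controls. Without that library the log2 fold change was 0.26 (edgeR adjusted p = 0.0024). With its counts corrected along the genome its EZH2 level became 94.7 CPM, the groups overlapped, and the log2 fold change was 0.19 (SE 0.065, edgeR adjusted p = 0.0413). The call was lost without knockout-labelled replicate 1 (edgeR adjusted p = 0.0595). The part of the chromosome 7 deficit in the EZH2 result beyond these values was not tested.

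EZH1, the other PRC2 methyltransferase, is associated with non-dividing cells in many tissues and lies on chromosome 17 (42700275 to 42745049, minus strand). It measured 57.3, 59.6 and 63.2 CPM in controls and 58.0, 56.7 and 57.4 CPM in the knockout-labelled libraries. The groups overlapped (log2 fold change -0.06, SE 0.057, edgeR adjusted p = 0.461).

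SUZ12, the PRC2 scaffold (chr17:31937018-32001045, plus strand), measured 113, 120.1 and 116 CPM in controls and 102, 109 and 113 CPM in the knockout-labelled libraries. Its highest knockout-labelled library lay just under its lowest control, and the difference was not called (log2 fold change -0.11, SE 0.054, edgeR adjusted p = 0.195). The near-identical copy SUZ12P was counted separately at 173 to 238 reads per library (log2 fold change -0.13, edgeR adjusted p = 0.59); reads common to both genes cannot be told apart. EED, the subunit that reads the methylated histone tail (chr11:86244544-86278813, plus strand), measured 18.0, 18.7 and 17.9 CPM in controls and 15.5, 15.2 and 16.2 CPM in the knockout-labelled libraries. Every EED value of the knockout-labelled libraries lay below every control, yet the difference missed the threshold over all genes (log2 fold change -0.22, SE 0.077, unadjusted p = 0.0191, edgeR adjusted p = 0.0745). EZH2 and its obligate partners SUZ12 and EED thus had fold changes of opposite sign, of which only that of EZH2 passed.

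BMI1, the PCGF protein that activates the ubiquitin ligase of canonical PRC1 and a known self-renewal factor of stem cells, showed the largest difference of the 9 subunits. From 905, 923 and 652 reads in the controls and 479, 509 and 539 in the knockout-labelled libraries, it measured 55.9, 60.7 and 48.7 CPM against 28.9, 36.1 and 35.3 CPM. All 3 values of the knockout-labelled libraries lay below all 3 controls. The mean fell by 39.4%, from 55.1 ± 6.07 to 33.4 ± 3.92 CPM (SD over n = 3 each; log2 fold change -0.72, SE 0.11, edgeR adjusted p = 0.00208). With each of the 6 libraries left out in turn BMI1 stayed called, with log2 fold changes of -0.80 to -0.63 and a highest edgeR adjusted p of 0.0117. Without control replicate 2 the value was -0.65 (edgeR adjusted p = 1.48e-05), and with that library corrected it was -0.70 (edgeR adjusted p = 4.47e-05).

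BMI1 lies at chr10:22321211-22331484 on the plus strand, directly after COMMD3, and 1000 of its 4283 exon bases (23.4%) are shared with the annotated read-through gene COMMD3-BMI1. The read-through had 0 reads in every library, and how reads over shared bases were assigned is not stated in the sources used here. COMMD3 itself, which encodes a COMM-domain protein, had 63, 82 and 61 reads in controls and 46, 53 and 54 in the knockout-labelled libraries, with a log2 fold change of -0.46 that was not called (edgeR adjusted p = 0.111). The genes whose log2 CPM most resembled that of BMI1 over the 6 libraries, among 10061 genes with a mean of at least 10 CPM, were IL15RA (Pearson r 0.997), THAP6 (0.997), PMP22 (0.996), SPATA13 (0.996) and RAB26 (0.995). These libraries share their 2 groups, and genes that differ between groups in the same direction tend to score high; 19 genes reached r of 0.99 or more. Each of the 5 was called lower, by log2 fold changes from -0.29 for THAP6 to -0.84 for RAB26, but the calls of THAP6 and PMP22 were lost with some libraries left out (highest edgeR adjusted p 0.0731 and 0.104).

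RNF2, the RING-type ubiquitin ligase that pairs with BMI1 (chr1:185045364-185102608, plus strand), measured 50.7, 50.9 and 52.3 CPM in controls and 48.7, 48.4 and 49.5 CPM in the knockout-labelled libraries. The groups were separate but close, and the difference was not called (log2 fold change -0.07, SE 0.053, edgeR adjusted p = 0.383). With control replicate 2 corrected along the genome the RNF2 groups overlapped. Its paralogue RING1 had a log2 fold change of 0.02 (edgeR adjusted p = 0.809).

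Of the chromodomain genes CBX2 rose, while CBX7 and CBX8 were not called. CBX2 (chr17:79778132-79787983, plus strand), whose protein can compact nucleosomes, measured 25.6, 27.9 and 28.1 CPM in controls and 35.3, 32.3 and 36.7 CPM in the knockout-labelled libraries. The groups did not overlap, and the mean rose from 27.2 ± 1.37 to 34.8 ± 2.28 CPM (SD, n = 3), or 1.28-fold (log2 fold change 0.36, SE 0.076, edgeR adjusted p = 0.0123). Its call was lost without control replicate 1 (edgeR adjusted p = 0.0536), without knockout-labelled replicate 1 (0.057) or without knockout-labelled replicate 3 (0.0587), although the log2 fold change stayed between 0.31 and 0.40.

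CBX8 lies 4148 bases from CBX2 on the opposite strand (chr17:79792132-79801683). CBX8 measured 29.4, 25.3 and 27.1 CPM in controls and 29.7, 24.0 and 28.7 CPM in the knockout-labelled libraries, and the groups overlapped throughout (log2 fold change 0.01, SE 0.099, edgeR adjusted p = 0.947). CBX7 (chr22:39120167-39152674, minus strand), a reader tied to maintenance of the undifferentiated state in embryonic stem cells, measured 23.9, 22.6 and 22.02 CPM in controls and 21.0, 20.4 and 19.8 CPM in the knockout-labelled libraries. Its groups were separate but the difference was not called (log2 fold change -0.16, SE 0.073, edgeR adjusted p = 0.149). CBX6, a further reader, fell slightly (log2 fold change -0.15, SE 0.043, edgeR adjusted p = 0.0374), a call kept with only 1 of the 6 libraries left out, control replicate 2, and absent with DESeq2 (adjusted p = 0.107).

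**Figure D2:**
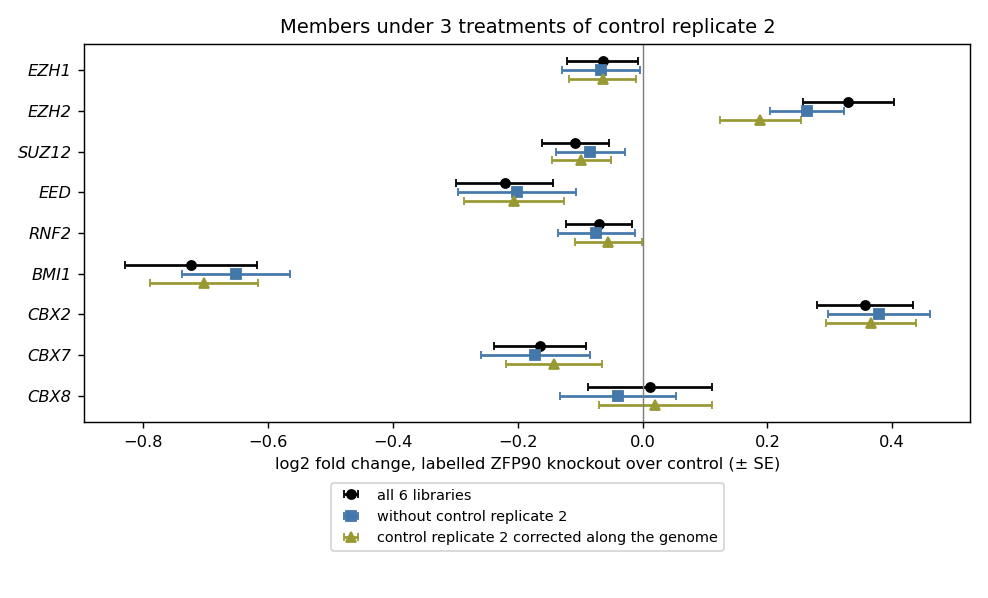
Log2 fold change ± SE of the 9 subunits, libraries labelled ZFP90 knockout over control, from all 6 libraries (black circles), without control replicate 2 (blue squares) and with control replicate 2 corrected along the genome (olive triangles). EZH2 moves from 0.33 to 0.26 and 0.19, whereas BMI1 stays between -0.72 and -0.65.

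Levels were set per kilobase of the principal transcript, less bases shared with another counted gene; this removed the 1000 bases that BMI1 shares with COMMD3-BMI1, leaving 2428 of 3428, and no bases of the other 8. On that scale EZH2 and SUZ12 were the most abundant of the 9 in controls, at 29.3 ± 2.74 and 25.9 ± 0.769 CPM per kb (SD, n = 3), with ranges that overlapped. The overlap came from control replicate 2 alone, with its deficit around EZH2. Its EZH2 level was 70.2 CPM, and 94.7 CPM when corrected along the genome. With that correction EZH2 lay above SUZ12 in controls too, without overlap. BMI1 followed at 22.7 ± 2.50 CPM per kb, then RNF2 at 14.2 ± 0.248, EZH1 at 12.98 ± 0.636, EED at 8.19 ± 0.188 and CBX8 at 7.19 ± 0.551. CBX2 and CBX7 were lowest, at 5.86 ± 0.296 and 5.604 ± 0.241 CPM per kb, with overlapping ranges. In the knockout-labelled libraries EZH2 stood at 36.9 ± 1.38 and SUZ12 at 24.05 ± 1.18 CPM per kb, ranges that did not overlap. BMI1 (13.8 ± 1.61) then overlapped in range with RNF2 (13.6 ± 0.168) and EZH1 (12.4 ± 0.136), while CBX2 (7.49 ± 0.490) overlapped with CBX8 (7.25 ± 0.811) and EED (7.03 ± 0.225). The place of BMI1 rests on its length: over the whole transcript, a choice made after seeing the data, it measured 16.1 ± 1.77 CPM per kb in controls, overlapping in range with RNF2, and 9.75 ± 1.14 in the knockout-labelled libraries, below RNF2 and EZH1 without overlap. These levels take lengths from GRCh38 transcripts while the reads were counted on an older build, so they order genes only roughly.

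Ratios between paralogues that occupy the same place in a complex do not depend on library scaling. Of 6 ratios compared, that of EZH1 to EZH2 was lower in every knockout-labelled library than in every control, with a mean log2 ratio of -0.36 ± 0.17 in controls and -0.76 ± 0.06 in the knockout-labelled libraries (SD, n = 3; exact two-sided permutation test, p = 0.1, adjusted p = 0.15). An exact test of 3 against 3 libraries cannot give less than 0.1, so none of the 6 could pass. With control replicate 2 corrected the difference shrank from -0.40 to -0.25. Among the chromodomain genes, the log2 ratio of CBX7 to CBX2 was -0.25 ± 0.13 against -0.77 ± 0.12, without overlap (exact permutation p = 0.1, adjusted p = 0.15). That of CBX8 to CBX2 was 0.00 ± 0.18 against -0.34 ± 0.09, also without overlap (exact permutation p = 0.1, adjusted p = 0.15). Ratios over EZH2 or CBX2, which were themselves called higher, are not independent of those calls. The ratio of CBX7 to CBX8 overlapped between groups (difference -0.17, exact permutation p = 0.3, adjusted p = 0.3). The ratio of BMI1 to its paralogue PCGF2 also overlapped, at 0.67 ± 0.23 against 0.29 ± 0.18 (exact permutation p = 0.2, adjusted p = 0.24), and PCGF2 itself fell. RNF2 to RING1 differed least, by -0.09 on the log2 scale without overlap (exact permutation p = 0.1, adjusted p = 0.15).

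**Figure D3:**
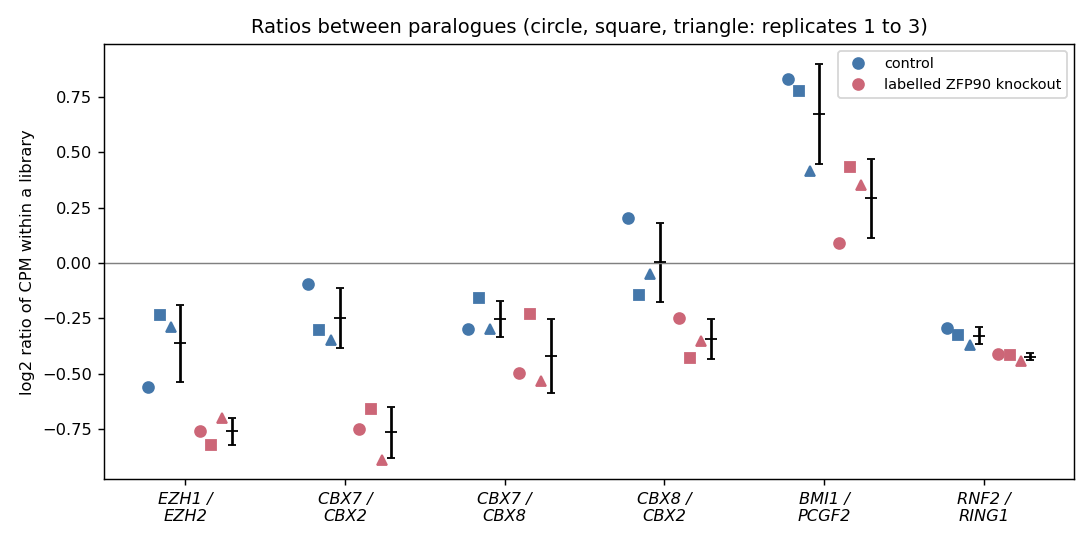
Log2 ratio of CPM between paralogues within each library for 6 pairs, controls in blue and libraries labelled ZFP90 knockout in red; circles, squares and triangles are replicates 1 to 3 and black bars give mean ± SD (n = 3). EZH1 / EZH2 and CBX7 / CBX2 separate the groups, whereas CBX7 / CBX8 and BMI1 / PCGF2 overlap.

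Of 48 tested genes in 4 lists of further subunits and cofactors, 8 rose and 6 fell (29.2% called, against 21.1% of all tested genes; median log2 fold change 0.04 against 0.0084). The count of rises fell to 5 without knockout-labelled replicate 1 or 2 and to 3 without knockout-labelled replicate 3, and that of falls to 2 without knockout-labelled replicate 1. Without control replicate 2, 11 rose and 6 fell. With that library corrected along the genome, 12 rose and 8 fell.

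Of 9 tested accessory genes of PRC2, EPOP rose and PHF1 and LCOR fell (median log2 fold change -0.00). The share called was 33.3%, against 21.1% of all tested genes. PHF1, a Polycomb-like protein that recruits PRC2 to chromatin, measured 39.4, 35.9 and 41.1 CPM in controls and 27.7, 30.2 and 28.5 CPM in the knockout-labelled libraries, without overlap (log2 fold change -0.43, SE 0.075, edgeR adjusted p = 0.00464). LCOR, whose locus also encodes the PRC2 cofactor PALI1, had a log2 fold change of -0.33 (SE 0.064, edgeR adjusted p = 0.00808). EPOP, which links PRC2 to elongin and was counted under the older symbol C17orf96, had one of 0.30 (SE 0.063, edgeR adjusted p = 0.0108) and lost its call without knockout-labelled replicate 3, while without control replicate 2 there were 2 rises. The cofactor JARID2 (0.04, edgeR adjusted p = 0.661) and the Polycomb-like genes MTF2 (-0.00, 0.987) and PHF19 (-0.04, 0.831) were not called.

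Of 14 tested further core genes of PRC1, 2 rose, SCML2 among them, and CBX6, PCGF2 and PHC2 fell (median log2 fold change -0.07). The share called was 35.7%, against 21.1% of all tested genes. PCGF2, the closest paralogue of BMI1, measured 34.5 ± 2.69 CPM in controls and 27.2 ± 0.473 CPM in the knockout-labelled libraries (SD, n = 3; log2 fold change -0.34, SE 0.076, edgeR adjusted p = 0.0146). PHC2, a polyhomeotic protein that polymerises PRC1, had a log2 fold change of -0.27 (SE 0.056, edgeR adjusted p = 0.0102). SCML2 lies on chromosome X, where control replicate 2 stood at 54.6% of the other controls around the gene, and its log2 fold change of 0.79 (edgeR adjusted p = 0.0303) was 0.53 without that library. Any 1 knockout-labelled library left out lowered the rises to 1, and the falls were 0 without knockout-labelled replicate 1 and 1 without knockout-labelled replicate 3.

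Variant PRC1 lacks the CBX proteins of canonical PRC1. Of its 15 tested genes, 4 rose and 0 fell by edgeR, with a median log2 fold change of 0.14. The share called was 26.7%, against 21.1% of all tested genes. At an unadjusted p under 0.05, 5 were higher and 1 lower, and DESeq2 called 3 higher and 0 lower. With the replicate number as a block, 3 were higher and 1 lower. With control replicate 2 corrected, 5 were higher and YAF2 was lower (log2 fold change -0.29, edgeR adjusted p = 0.0313). Without that library the log2 fold change of BCOR went from 0.25 to 0.035 and that of BCORL1 from 0.28 to 0.035, neither called. FBRSL1, a paralogue of the PRC1 partner AUTS2, rose from 104.8 ± 0.559 to 126 ± 2.75 CPM (log2 fold change 0.26, SE 0.045, edgeR adjusted p = 0.00446), and the deubiquitinase USP7 from 209 ± 3.32 to 245 ± 3.66 CPM (log2 fold change 0.23, SE 0.043, edgeR adjusted p = 0.00649; SD, n = 3). TFDP1 (log2 fold change 0.19, SE 0.053, edgeR adjusted p = 0.0386) and the deacetylase HDAC2 (0.30, SE 0.086, edgeR adjusted p = 0.0396) were the others. The TFDP1 call was kept with only 1 of the 6 libraries left out, control replicate 2. HDAC2 is on chromosome 6, where control replicate 2 stood at 81.3% around the gene, and had a log2 fold change of 0.19 without that library. Leaving out any 1 knockout-labelled library left 2 rises.

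Of 10 tested genes of the Polycomb deubiquitinase PR-DUB, which removes ubiquitin from histone H2A, 20% were called, against 21.1% of all tested genes. FOXK2 rose (log2 fold change 0.23, SE 0.050, edgeR adjusted p = 0.0121) and KDM1B fell (-0.32, SE 0.086, edgeR adjusted p = 0.0295). The median was 0.03. Without control replicate 2, 3 rose and 1 fell, and with that library corrected 3 rose and 2 fell. The calls of FOXK2 and KDM1B were both lost without control replicate 1. That of FOXK2 was also lost without knockout-labelled replicate 3, and that of KDM1B without control replicate 3 or knockout-labelled replicate 1 or 2. The catalytic subunit BAP1 was not called (0.06, edgeR adjusted p = 0.492).

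Among 10 genes whose products oppose Polycomb marks, KDM6B and SMARCB1 rose and 0 fell by edgeR, with a median log2 fold change of 0.08. The share called was 20%, near the 21.1% of all tested genes. At an unadjusted p under 0.05, 3 were higher and 1 lower, and DESeq2 called 2 and 0. KDM6B, a demethylase that removes the PRC2 mark, measured 119, 122 and 123 CPM in controls and 143, 145 and 143 CPM in the knockout-labelled libraries, without overlap (log2 fold change 0.24, SE 0.044, edgeR adjusted p = 0.00589). SMARCB1, a core SWI/SNF subunit, had a log2 fold change of 0.23 (SE 0.054, edgeR adjusted p = 0.0166) and lost its call without control replicate 1 or without knockout-labelled replicate 2 or 3. KDM6A, the other demethylase, lies on chromosome X and measured 51.8, 29.02 and 58.5 CPM in controls and 42.2, 39.6 and 43.9 CPM in the knockout-labelled libraries. It was not called with all libraries (log2 fold change -0.15, edgeR adjusted p = 0.664), but without the low control replicate 2 it was (-0.39, edgeR adjusted p = 0.000382), and likewise with that library corrected (-0.39, edgeR adjusted p = 0.000579).

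**Figure D4:**
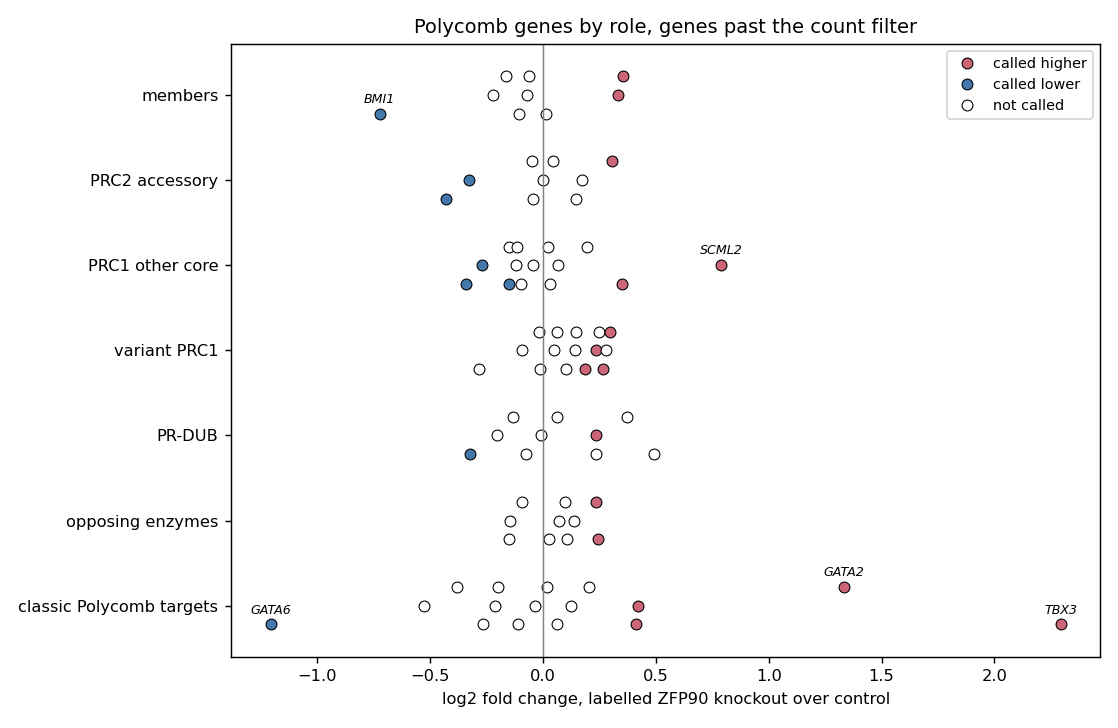
Log2 fold change, libraries labelled ZFP90 knockout over control, of every tested gene in the 9 subunits and 6 further lists; red and blue points were called higher and lower at an edgeR adjusted p under 0.05, open points were not called. Called genes beyond 0.5 in size are named; TBX3 at 2.29 and GATA2 at 1.33 stand farthest right and GATA6 at -1.21 farthest left.

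Genes known as Polycomb targets in many cell types were mostly low in these cells: 21 of 37 did not pass the count filter, and PAX3, SOX17, OLIG2, NEUROG1 and DLX5 had 0 reads in every library. Of the 16 tested, 4 rose and GATA6 fell, with a median log2 fold change of -0.01. The share called was 31.25%, against 21.1% of all tested genes (9.73% higher and 11.4% lower), a count too small to set the targets apart. TBX3, a T-box repressor, measured 11.6, 12.6 and 11.7 CPM in controls and 59.4, 56.0 and 60.7 CPM in the knockout-labelled libraries (log2 fold change 2.29, SE 0.071, edgeR adjusted p = 1.1e-06). All 3 knockout-labelled libraries stood far above the controls. GATA2, a haematopoietic and neural transcription factor, measured 12.2, 11.8 and 14.7 CPM against 36.1, 26.7 and 34.3 CPM (log2 fold change 1.33, SE 0.13, edgeR adjusted p = 0.000293). The homeobox gene MSX1 rose from 100.5 ± 1.89 to 135 ± 9.49 CPM (log2 fold change 0.42) and the forkhead gene FOXC1 from 116 ± 15.6 to 154 ± 8.74 CPM (log2 fold change 0.41; SD, n = 3), the latter lost without knockout-labelled replicate 1 or 3. GATA6, an endodermal transcription factor, measured 4.81 ± 0.507 CPM in controls and fell to 2.08 ± 0.422 CPM (SD over n = 3 each; log2 fold change -1.21, SE 0.19, edgeR adjusted p = 0.00291).

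The best-known targets of BMI1, CDKN2A and CDKN2B, which encode cell cycle inhibitors, lie on chromosome 9, where control replicate 2 was low. With all 6 libraries neither was called (log2 fold change -0.11, edgeR adjusted p = 0.674, and -0.27, edgeR adjusted p = 0.374). Without control replicate 2 both were lower in the knockout-labelled libraries, CDKN2A by a log2 fold change of -0.31 (edgeR adjusted p = 0.0063) and CDKN2B by -0.49 (edgeR adjusted p = 0.000157). The number called lower among the 16 targets was then 3 in place of 1. With that library corrected the log2 fold changes were smaller, -0.24 for CDKN2A (edgeR adjusted p = 0.0295) and -0.39 for CDKN2B (edgeR adjusted p = 0.00822), and 4 targets were called lower. ISL1, a further target that passed the count filter only in some of the fits with a library left out, was also called lower without control replicate 2 (log2 fold change -1.08, edgeR adjusted p = 0.0486). That value rests on few reads: 20, 8 and 13 in the controls and 9, 9 and 6 in the knockout-labelled libraries. Over all 6 libraries the ISL1 groups overlapped.

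EZH2 is known to follow cell division. Of 25 proliferation genes 13 rose, 1 fell and 11 were not called (median log2 fold change 0.32), against 9.73% higher and 11.4% lower over all tested genes. MKI67 rose by 0.64, FOXM1 by 0.91 and RRM2 by 1.00 on the log2 scale, while values for MCM5 (0.01), MCM6 (-0.13), E2F1 (-0.05), PCNA (0.11) and MCM2 (0.22) were not called. CDK1 fell (-0.45), a call lost without control replicate 1 or without any 1 knockout-labelled library. In 15 of the 25 the groups did not overlap, against 41.2% of all tested genes. The summed CPM of the 25 was 1529.7, 1711 and 1362 in the controls and 1935, 2012 and 1961 in the knockout-labelled libraries. The number that rose was 20 without control replicate 2, 7 without knockout-labelled replicate 1 or 2, 8 without knockout-labelled replicate 3 and 9 without control replicate 1 or 3. The part of proliferation in the EZH2 result was not tested.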

How the data were processed

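The authors deposited raw counts of reads for each gene symbol in 6 HCT116 libraries, with a table for each. Per the submitters' processing notes, the authors named TopHat2 2.0.11 and HTSeq with hg19 and GRCh37; which strand setting and version of HTSeq they used is not given in the sources used here, so reads of overlapping, antisense or near-identical genes cannot be told apart. The 5 summary lines of each table, which name no gene, held 31.7% to 32.4% of listed reads and entered neither library sizes nor tests; 7.44% to 7.81% were ambiguous.

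Counts were tested with edgeR 4.0.16 in R 4.3.3 (quasi-likelihood test, TMM scaling, filterByExpr with minimum count 10 and minimum total 15, Benjamini-Hochberg adjustment over all tested genes, adjusted p under 0.05). CPM uses TMM-scaled library sizes. The test was also run on simulated data with the same dispersion for all genes and no deficit in any library. That run therefore does not cover a deficit such as that of control replicate 2. Positions and lengths come from GENCODE 29 on GRCh38, by symbol only. No replicate pair agreed within sampling noise. Chi-square per degree of freedom was 19.5 and 19.7 for the 2 pairs with control replicate 2, and 2.19 to 3.94 for the others. Each library counted as 1 sample, although such excess may be technical and does not show separate cultures. Counting floors cover counting error only.

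Members and lists were chosen with earlier results of these data known. Named were the 9 subunits; called genes of the other Polycomb lists and 10 more such genes whatever their result; near copies and overlapping genes; and the 5 genes most like the called member with the lowest p. CDKN2A, CDKN2B, ISL1 and the named marker and proliferation genes were picked outside that rule, after their values were seen. Under every alternative, list counts cover the genes tested with all libraries. A gene that the rule takes is not reported here. Alternatives were 3 scalings, DESeq2 1.42.0, limma-voom (limma 3.58.1), 2 filters, an adjusted p under 0.01, the replicate number as a block, leaving out each library, and correcting control replicate 2 by a running median over 51 genes.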

Additional observations from a re-analysis of the deposited data

How the results depend on the processing

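BMI1 stayed lower and called under every alternative run. EZH2 and CBX2 did not: at an adjusted p under 0.01 the subunits called higher numbered 0, and 0 to 2 with 1 library left out, while 1 was lower in each such fit. CBX8, never called, turned to -0.0528 with library size alone, to -0.00934 with upper quartile scaling, and to -0.0393, -0.0505 and -0.0218 without control replicate 2, knockout-labelled replicate 1 or replicate 3 (range -0.05 to 0.10). Other members kept their sign.

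In the 4 lists of further subunits 8 rose; library size alone gave 4, no filter 13, an adjusted p under 0.01 gave 3, and 1 library left out 3 to 11. Of the 6 that fell, an adjusted p under 0.01 left 2, and 1 library left out 2 to 6. Opposing enzymes called higher numbered 0 with library size alone, 1 at an adjusted p under 0.01 and 1 to 2 with 1 library left out; those lower were 2 after correction and 0 to 1 with 1 library left out. Targets called lower were 2 with library size alone, 2 with no filter, 4 after correction and 1 to 3 with 1 library left out.

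Over all genes 1593 were higher and 1861 lower. Those higher were 986 with library size alone (2343 lower, so that 29.6% of calls were higher in place of 46.1%), 2461 after correction of control replicate 2, 618 at an adjusted p under 0.01 and 756 to 2261 with 1 library left out. Those lower were 869 at an adjusted p under 0.01 and 1025 to 2361 with 1 library left out. DESeq2 called 1298 and 1524.

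Replicate numbers are shared between groups, but same-numbered libraries deviated together only weakly (correlations 0.049, 0.145 and 0.0933), so the numbers were not taken as pairs, although each library correlated best with its own number. With the replicate number as a block, 1623 genes were higher and 1840 lower, the subunits stayed at 2 and 1, and targets called lower numbered 2. Counts of 3 libraries a group limit what small differences such as that of EED can show.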
